A study of Homo sapiens with 6 samples.

Results

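The data describe 7 interferon-induced GTPase genes, MX1, MX2, GBP1, GBP2, GBP3, GBP4 and GBP5, chosen by gene symbol from a table of 57820 genes. RNA sequencing was carried out on M14, a human melanoma cell line that carries a doxycycline-inducible short hairpin RNA against STAG2, a subunit of the cohesin complex that shapes DNA loops. Both conditions carried the hairpin and were grown in puromycin. The WT condition is the same line without doxycycline (3 libraries), and the KD condition received doxycycline, which induces the hairpin, for 5 days (3 libraries). The hairpin line is 1 cell line. No doxycycline-treated cells without the hairpin were analysed here, so an effect of doxycycline itself and of STAG2 depletion cannot be told apart. The study asked how loss of STAG2 affects genome folding and gene expression in melanoma, and the comparison here is the level of each GTPase transcript in KD against WT.

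MX and GBP proteins are large GTPases that interferons induce to restrict intracellular pathogens. MX proteins are relatives of the dynamins and assemble into rings around viral components: MX1 acts in the cytoplasm against influenza and many other RNA viruses, and MX2 sits at the nuclear envelope and blocks the nuclear entry of HIV. GBPs, the guanylate-binding proteins, coat cytosolic bacteria and pathogen vacuoles and help to activate inflammatory caspases, and several of them are anchored to membranes by a lipid added to their tail. MX genes are best known as targets of type I and type III interferons, which act through ISGF3, a complex that holds STAT2 and IRF9, at the interferon-stimulated response element (ISRE). GBP genes are best known as targets of interferon gamma, which acts at gamma-activated sites (GAS) and through IRF1.

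The deposited values are expected counts, estimates of the reads from each gene. The WT libraries held 24895998, 35181733 and 29157038 of them and the KD libraries 30143957, 31155103 and 33089945, in replicate order. Levels are given as CPM (counts set relative to the library's total) scaled by the TMM method, and on this scale 3 counts, the floor used here, correspond to between 0.0870 and 0.112 CPM. WT replicate 1 stood apart from the other WT libraries. Mitochondrial genes took 5.07% of its counts and between 2.12% and 2.94% in the other 5 libraries. The 10 melanocyte lineage markers, led by PMEL, a pigment granule protein, summed to 6648 CPM in it and to 2205 and 2085 CPM in WT replicates 2 and 3. The same sum was 2857 CPM in KD replicate 1 against 1560 and 1465 CPM in KD replicates 2 and 3, so the 2 libraries numbered 1 both stood above the others of their condition. The fold changes of the GTPase genes and of STAG2 and the counts of genes called were therefore also computed from replicates 2 and 3 alone. In bulk RNA, fewer cells of a type and less RNA per cell cannot be told apart.

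STAG2, the hairpin's target, gave 66.5, 34.8 and 28.8 CPM in WT against 16.0, 7.31 and 6.69 CPM in KD. Every KD library lay below every WT library. The log2 fold change was -2.12 (SE 0.43, edgeR's quasi-likelihood test, Benjamini-Hochberg adjusted p = 0.0342). From replicates 2 and 3 alone it was -2.17 (edgeR adjusted p = 0.00298). The call was lost without WT replicate 2, WT replicate 3, KD replicate 2 or KD replicate 3 (edgeR adjusted p between 0.0652 and 0.168).

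Of the 15605 genes tested, 404 (2.59%) passed an adjusted p of 0.05, 273 of them (1.75%) higher and 131 (0.839%) lower in KD. All 7 GTPase genes were tested, and 5 rose: MX1, MX2, GBP1, GBP2 and GBP3. For the same 5 genes every KD library lay above every WT library, a pattern seen in 1848 (11.8%) of the tested genes. GBP4 and GBP5 did not pass. With the replicate number as a block the same 5 GTPase genes rose, with edgeR adjusted p from 3.08e-05 (MX1) to 0.00649 (GBP3). STAG2 passed as lower with the block (edgeR adjusted p = 1.04e-04). Genes called over the whole table went from 404 to 1486 with it, of which 796 (5.1%) were higher and 690 (4.42%) lower. Fits with 1 library left out were run without the block. The plot of values by library shows the 6 libraries of each gene, and the plot of fold changes gives the intervals.

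**Figure D1:**
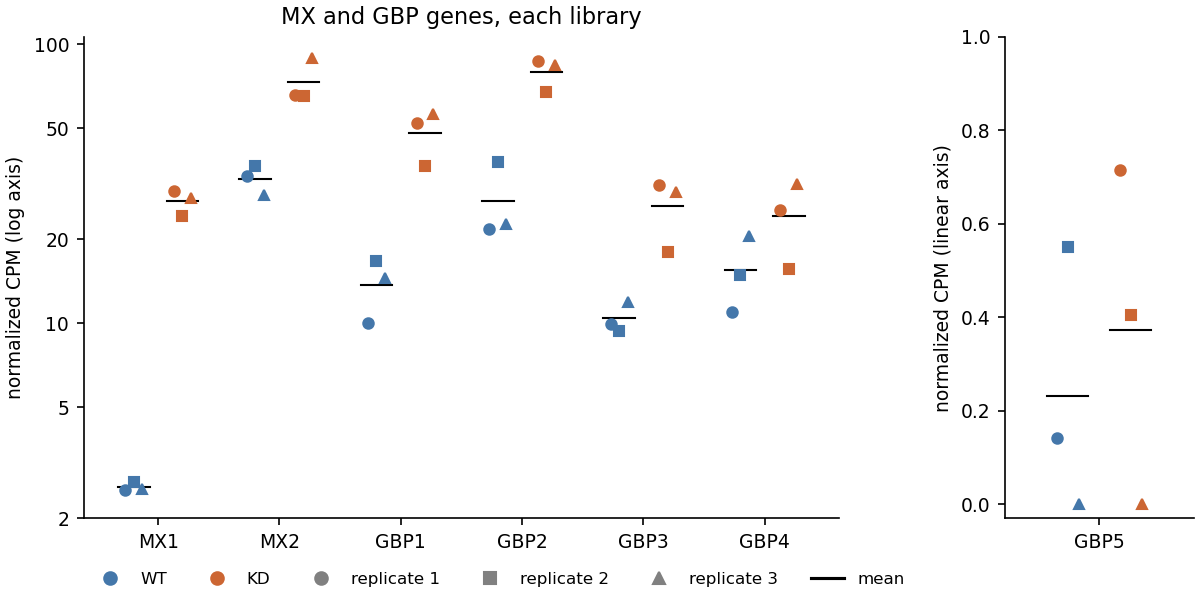
Normalized CPM of each GTPase gene in 3 WT (blue) and 3 KD (orange) libraries, with the replicate number as the symbol and a line at the mean; the axis is logarithmic for 6 genes and linear for GBP5. MX1 sits between 2.53 and 2.70 CPM in WT and between 24.3 and 29.8 CPM in KD, while the GBP4 and GBP5 libraries of the 2 conditions overlap.

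MX1 (ENSG00000157601, chr21:42791947-42841998, plus strand, 17 exons over 2776 bases in the MANE Select transcript) gave 2.53, 2.70 and 2.55 CPM in WT against 29.8, 24.3 and 28.1 CPM in KD. The WT libraries differed by up to 1.06-fold among themselves, and the lowest KD library was 8.99 times the highest WT library. This was a log2 fold change of 3.40 (SE 0.28, 95% confidence interval 2.78 to 4.02, edgeR adjusted p = 2.06e-04), or 10.5-fold. MX2 (ENSG00000183486, chr21:42733926-42781320, plus strand, 14 exons over 3408 bases) lies 10.6 kb from MX1. It stood at 33.7, 36.5 and 28.8 CPM in WT and at 65.9, 65.2 and 89.0 CPM in KD. The groups did not overlap, and KD replicate 3 was the highest library. MX2 had a log2 fold change of 1.15 (SE 0.21, interval 0.68 to 1.63, edgeR adjusted p = 0.0226), or 2.22-fold. The MX2 call was lost when WT replicate 2, WT replicate 3, KD replicate 2 or KD replicate 3 was left out (edgeR adjusted p between 0.0763 and 0.152), while the MX1 call was kept in all 6 such fits (adjusted p at most 0.00387).

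The neighbouring pair thus differed in starting level and in fold. The log2 ratio of MX1 to MX2 CPM was -3.73, -3.76 and -3.50 in WT and -1.15, -1.43 and -1.66 in KD. It was higher in every KD library, by 2.25 on average (exact two-sided permutation p = 0.1, the smallest that 3 against 3 libraries can give). Per kb of transcript, MX1 made up 8.85% ± 0.82 (SD, n = 3) of the MX signal in WT and 31.7% ± 3.89 (SD, n = 3) in KD.

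The 5 GBP genes lie head to tail on the minus strand of chromosome 1 within 266 kb, in the order GBP3, GBP1, GBP2, GBP4 and GBP5. GBP1 (ENSG00000117228, chr1:89517565-89531043, 11 exons), which binds bacterial lipopolysaccharide and starts the GBP coat, gave 10.1, 16.7 and 14.5 CPM in WT against 52.3, 36.6 and 56.0 CPM in KD. Every KD library was at least 2.19 times the highest WT library. For GBP1 the log2 fold change was 1.81 (SE 0.27, interval 1.20 to 2.42, edgeR adjusted p = 0.00856), or 3.51-fold. The GBP1 call was lost in 1 of 6 leave-one-out fits, without KD replicate 3 (edgeR adjusted p = 0.0669). GBP2 (ENSG00000162645, chr1:89571815-89616139, 11 exons), a prenylated coat member, gave 21.7, 37.9 and 22.6 CPM in WT against 87.2, 67.3 and 84.6 CPM in KD. WT replicate 2 was the highest WT library, and the groups did not overlap. The log2 fold change was 1.54 (SE 0.26, interval 0.95 to 2.12, edgeR adjusted p = 0.0150), or 2.90-fold. The GBP2 call was lost without WT replicate 3, KD replicate 1 or KD replicate 3 (edgeR adjusted p between 0.0508 and 0.0926).

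GBP3 (ENSG00000117226, chr1:89472362-89488577, 11 exons), which joins the coat and assists CASP4, gave 9.95, 9.37 and 11.9 CPM in WT against 31.2, 18.0 and 29.6 CPM in KD. KD replicate 2 was the lowest KD library and still 1.51 times the highest WT library. For GBP3 the log2 fold change was 1.34 (SE 0.29, interval 0.69 to 1.98, edgeR adjusted p = 0.0456), or 2.53-fold. This call was the closest to the threshold. Without the block, leaving out any 1 library put the edgeR adjusted p between 0.0573 and 0.217. Replicates 2 and 3 alone, also without it, gave a log2 fold change of 1.17 (edgeR adjusted p = 0.0792). With the replicate block and all libraries the GBP3 log2 fold change was 1.30 (edgeR adjusted p = 0.00649). GBP4 (ENSG00000162654, chr1:89646827-89664625, 11 exons), another coat member, gave 10.9, 15.0 and 20.6 CPM in WT against 25.5, 15.6 and 31.5 CPM in KD. KD replicate 2 lay below WT replicate 3, so the groups overlapped, although each KD library lay above the WT library of the same number. The log2 fold change was 0.64 (SE 0.34, interval -0.11 to 1.40, edgeR adjusted p = 0.433), an interval that holds both no change and a rise of the size of MX2. With the replicate block GBP4 did not pass either (log2 fold change 0.63, SE 0.25, edgeR adjusted p = 0.166).

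GBP5 (ENSG00000154451, chr1:89721872-89738543, 12 exons), which with GBP2 inhibits the protease FURIN, was close to the limit of detection. It had 3.79, 19.0 and 0 expected counts in the WT libraries and 23.0, 12.0 and 0 in the KD libraries. The highest level was 0.716 CPM, in KD replicate 1, and WT replicate 3 and KD replicate 3 held no count, which allows up to 0.109 and 0.0918 CPM. A difference between the conditions was not detectable with these counts (log2 fold change 0.66, interval -3.74 to 5.06, edgeR adjusted p = 0.932), and its sign turned without KD replicate 1 (-0.21). The remaining human GBP genes were nearly silent: GBP6 and GBP7 were each above 0 in 1 of 6 libraries, with at most 5 expected counts, and neither was tested.

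**Figure D2:**
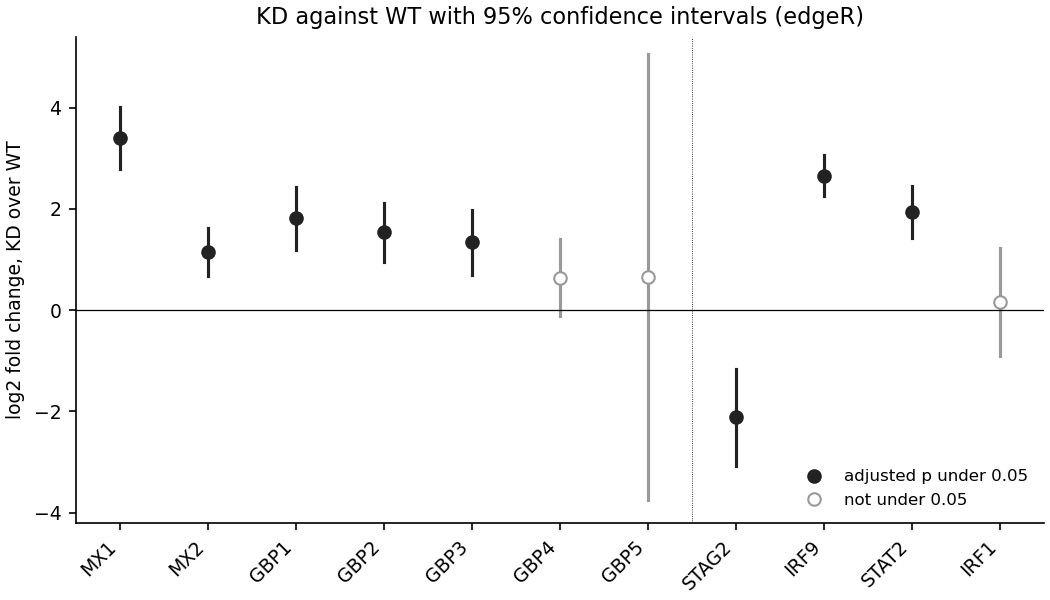
Log2 fold change of KD over WT (points) with 95% confidence intervals (bars) from edgeR for the 7 GTPase genes, STAG2, IRF9, STAT2 and IRF1; filled points passed an adjusted p of 0.05. MX1 stands at 3.40, MX2, GBP1, GBP2 and GBP3 lie between 1.15 and 1.81, and the GBP4, GBP5 and IRF1 intervals include 0.

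Promoters of the GBP genes are shown for GBP1 and GBP3, which share the ISRE core at different distances from the MANE Select start. GBP4 is shown because it holds the core but did not pass the test. Each line gives 150 bases before the annotated start of the MANE Select transcript and 20 from the start on. The lines were read from GRCh37, the sequence that hg19 also holds. Capitals mark matches on either strand to GAAANNGAAA, the core of the ISRE, and, in GBP3, also to the GAS core TTCNNNGAA.
GBP1 (chr1:89530872-89531041, minus strand): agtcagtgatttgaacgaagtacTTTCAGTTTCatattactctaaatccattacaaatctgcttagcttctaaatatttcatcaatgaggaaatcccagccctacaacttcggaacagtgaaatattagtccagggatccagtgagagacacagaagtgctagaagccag
GBP3 (chr1:89488530-89488699, minus strand): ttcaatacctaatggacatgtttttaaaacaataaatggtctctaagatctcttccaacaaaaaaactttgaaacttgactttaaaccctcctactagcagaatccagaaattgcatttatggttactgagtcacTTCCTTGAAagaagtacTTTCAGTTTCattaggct
GBP4 (chr1:89664606-89664775, minus strand): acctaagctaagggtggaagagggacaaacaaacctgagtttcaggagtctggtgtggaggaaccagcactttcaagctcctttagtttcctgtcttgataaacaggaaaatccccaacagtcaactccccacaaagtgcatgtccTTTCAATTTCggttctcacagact
Counting the start base as 0, the ISRE core began at -127 in GBP1, at 2 in GBP3 and at -4 in GBP4. Of 18921 promoter windows of 300 bases, 619 (3.27%) held this core. GBP1 and GBP3 share the run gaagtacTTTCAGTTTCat, 19 bases, the longest that any 2 of the 5 GBP windows have in common. The GAS core began at -15 in GBP3, and 1208 of the 18921 windows (6.38%) held that motif. The GBP2 window, of a gene that rose, and the GBP5 window held neither motif, nor did the MX1 window, of the GTPase gene with the largest fold change. The MX1 window held 2 matches to GAAANGAAA, with 1 base between the GAAA elements, a form added to the search after promoter sequences had been read. Of all windows, 550 (2.91%) held this form and 42 (0.222%) held it at least 2 times. The MX2 window is not reported here, so the form is not shown to be particular to MX1. A match describes letters in the window and not a bound site, and no match says only that these letters are not there. Distances hold for the MANE Select start alone. The whole GBP1 line lies within the GBP1 gene span, which ends at 89531043, and the GBP2 and MX1 windows lie within theirs. Other annotated starts were not searched.

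**Figure D3:**
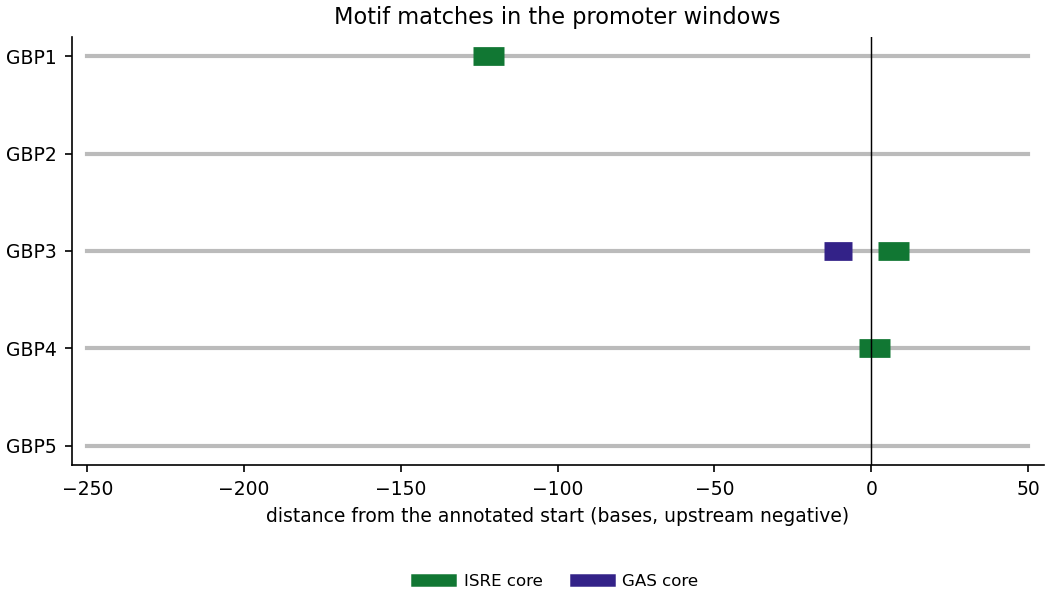
Positions of motif matches in the 300-base promoter windows of the 5 GBP genes, as distance in bases from the annotated MANE Select start (0). Green marks the ISRE core and blue the GAS core. GBP1, GBP3 and GBP4 hold a green match each, GBP3 also holds a blue one, and the GBP2 and GBP5 windows are empty.

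Levels were compared between genes as CPM per kb of transcript. In WT the order was MX2 (9.69 ± 1.14, SD, n = 3), GBP2 (6.71 ± 2.23), GBP1 (4.77 ± 1.17), GBP3 (3.43 ± 0.44), GBP4 (2.52 ± 0.79), MX1 (0.934 ± 0.033) and GBP5 (0.034 ± 0.042). Neighbours from MX2 down to GBP4 had overlapping ranges, although each of the 3 WT libraries gave this same order, and MX1 lay below GBP4 without overlap. In KD the order was MX2 (21.5 ± 3.97), GBP2 (19.5 ± 2.64), GBP1 (16.7 ± 3.58), MX1 (9.87 ± 1.02), GBP3 (8.66 ± 2.37), GBP4 (3.94 ± 1.30) and GBP5 (0.055 ± 0.053). MX2 exceeded GBP2 in 2 of 3 KD libraries, with overlapping ranges. GBP2 and GBP1 also overlapped, as did MX1 and GBP3, although each of the 3 KD libraries gave these pairs in this order. MX1 moved from the sixth place to the fourth, and GBP3 and GBP4 each moved down by 1 place.

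**Figure D4:**
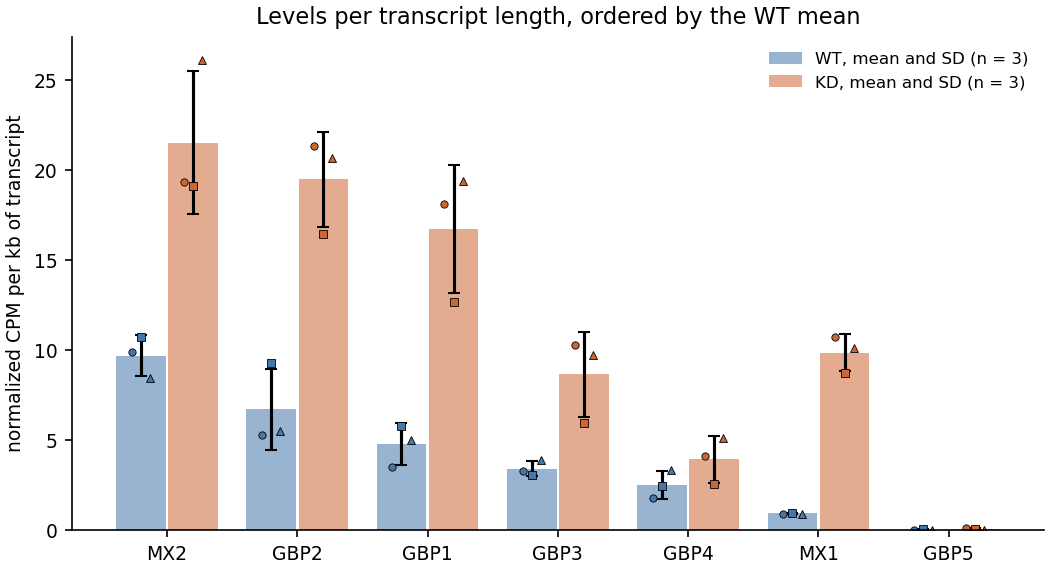
CPM per kb of transcript for the 7 GTPase genes in WT (blue) and KD (orange), ordered by the WT mean; bars are means, error bars SD (n = 3) and points single libraries. MX2 has the highest mean in both conditions, 9.69 and 21.5, and MX1 goes from 0.934 to 9.87.

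Summed over each family, the levels gave similar ratios between the conditions, which were not tested. The MX sum was 36.2, 39.2 and 31.4 CPM in WT and 95.8, 89.5 and 117 CPM in KD, a ratio of means of 2.83. The GBP sum was 52.8, 79.5 and 69.6 CPM in WT and 197, 138 and 202 CPM in KD, a ratio of means of 2.66. Within the GBP sum per kb, the share of GBP1 was 27.1% ± 1.72 (SD, n = 3) in WT and 34.2% ± 1.00 in KD, and that of GBP4 was 14.5% ± 3.77 in WT and 7.92% ± 1.30 in KD. GBP2 held the largest share in both conditions, 38.1% ± 6.94 and 40.3% ± 3.11. Of 15 pairs among the 6 genes other than GBP5, 9 had log2 ratios that did not overlap between the conditions, among them all 5 with MX1 and the pairs of GBP1, GBP2 and GBP3 with GBP4. Each of these 9 reached the smallest possible exact two-sided permutation p of 0.1, which is 0.167 after Benjamini-Hochberg adjustment over the 15 pairs. The pairs share genes and are not independent, and the share of such pairs over all tested genes was not computed. KD replicate 2 was the lowest KD library for MX1, MX2, GBP1, GBP2, GBP3 and GBP4.

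GBP1 and GBP3 share sequence with each other and with the pseudogene GBP1P1, so reads between them can be divided by the counting. In the reference transcripts, 398 of the 2834 50-base words of GBP1 (14%) also occur in another gene, the largest share of these genes. The share was 4.33% for GBP4, 4.18% for GBP3, 1.66% for GBP2, 0.769% for GBP5, 0.697% for MX1 and 0.566% for MX2. The genes that share most words with GBP4 were CASP10 and LINC01356, not other GBP genes. GBP1P1 itself held 9.23 expected counts in KD replicate 3 and 0 in the other libraries. TMPRSS2, which overlaps MX1 on the opposite strand, had at most 25.2 expected counts.

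The signalling genes upstream of these GTPases rose in part. Of 18 genes of interferon receptors, kinases and transcription factors, 17 were tested and 4 rose, beside 1.75% of all tested genes. The list median log2 fold change was 0.26, beside -0.03 over all tested genes. Among the 4 was IRF7, a factor that amplifies interferon production (log2 fold change 3.44, SE 0.23). IRF9, the DNA-binding subunit of ISGF3, stood at 19.0, 21.5 and 19.9 CPM in WT against 130, 123 and 128 CPM in KD (log2 fold change 2.66, SE 0.18, edgeR adjusted p = 6.49e-05). STAT2, another ISGF3 subunit, had a log2 fold change of 1.94 (SE 0.23). IRF1, the factor through which interferon gamma reaches many GBP genes, stood at 16.9, 77.4 and 65.4 CPM in WT against 37.9, 72.2 and 68.1 CPM in KD. The conditions overlapped for IRF1, with a log2 fold change of 0.16 (SE 0.48, interval -0.91 to 1.22, edgeR adjusted p = 0.933). With the block IRF2, a relative of IRF1, passed as higher (edgeR adjusted p = 0.0176, 0.0802 without it), beside 5.1% of all tested genes. Of 21 interferon genes 1 was tested and passed, the type III interferon IFNL1, which was at 0 in every WT library and at 6.19, 8.86 and 10.6 CPM in KD. IFNL2 and IFNL3 were also at 0 in WT, and in KD IFNL2 reached 2.93, 0 and 0.367 CPM and IFNL3 reached 0.338 CPM in replicate 2 alone. IFNG, IFNB1 and the 13 interferon alpha genes were at 0 in all 6 libraries.

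Other interferon-stimulated genes gave a scale for the MX and GBP values. Of 18 other antiviral effectors, all tested, 17 rose and none fell, beside 1.75% and 0.839% of all tested genes. Their median log2 fold change was 4.55. IFI6, which guards the endoplasmic reticulum against virus replication, stood at 72.5, 74.1 and 74.9 CPM in WT against 5322, 3078 and 5164 CPM in KD. IFI27 went from at most 0.493 CPM in WT to at least 94.3 CPM in KD, IFI44L from at most 0.754 to at least 40.5 CPM, and RSAD2, the antiviral enzyme viperin, from at most 0.0373 CPM to at least 21.2 CPM. The median of the 2 MX genes was 2.28 and that of the 5 GBP genes 1.34 on the same scale. Of 18 genes best known as targets of interferon gamma, 14 were tested, with a median of 0.20. Of these, 5 rose, beside 1.75% of all tested genes. The 4 largest were CD274, the checkpoint ligand PD-L1 (log2 fold change 3.41, SE 0.62), TAP1, a peptide transporter subunit (3.06, SE 0.24), WARS, a tRNA synthetase (1.76, SE 0.21), and PSMB9, an immunoproteasome subunit (1.66, SE 0.33). With the block PSMB8, another immunoproteasome subunit, passed as higher (edgeR adjusted p = 0.00882, 0.130 without it), beside 5.1% of all tested genes. CXCL9, CXCL10, CXCL11 and IDO1, in the same list, had at most 0.716 CPM in any library and were not tested.

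**Figure D5:**
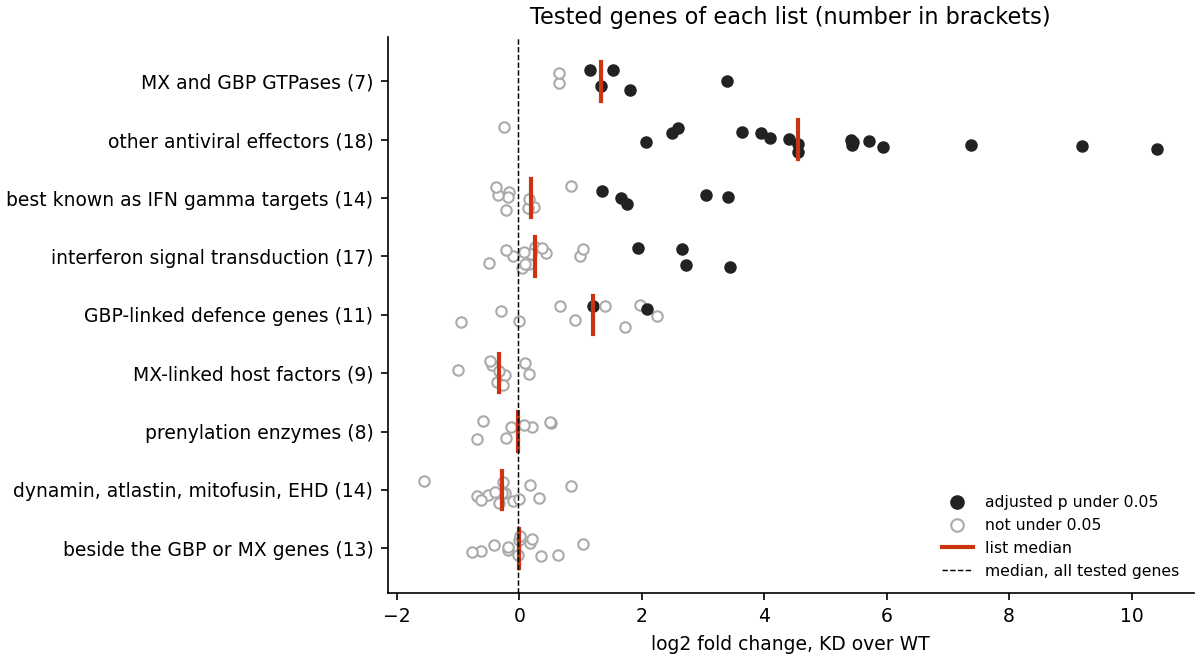
Log2 fold change of KD over WT for each tested gene of 9 gene groups, with the number tested in brackets; filled points passed an adjusted p of 0.05, red bars are list medians and the dashed line is the median of all tested genes. The other antiviral effectors have a median of 4.55 with 17 of 18 called, beside 2.59% of all tested genes, and in the short lists with no filled point a count of 0 is near that share.

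Genes that work with GBPs were examined next. Of 13 inflammasome and host defence genes linked to GBPs, 11 were tested and 2 rose, beside 1.75% of all tested genes. The median log2 fold change of the 11 was 1.20. RNF213, a ubiquitin ligase that coats intracellular bacteria, stood at 141, 187 and 109 CPM in WT against 392, 740 and 722 CPM in KD (log2 fold change 2.09, SE 0.30, edgeR adjusted p = 0.00717). CASP4, the caspase activated on GBP coats, stood at 31.2, 27.4 and 25.7 CPM in WT against 71.0, 60.1 and 62.9 CPM in KD (log2 fold change 1.20, SE 0.19, edgeR adjusted p = 0.0125). With the replicate block 5 of these genes passed, the additional ones being FURIN (block adjusted p = 0.00316, 0.0920 without it), IL1B (0.00936 and 0.0678) and NLRP3 (0.0446 and 0.207), which are named because of these values. Over all tested genes, 5.1% were called higher with the block. None of 8 enzymes of protein prenylation and of its lipid supply was called, with a median of -0.02. The most abundant were FDPS, which makes the farnesyl donor (189 ± 25.8 CPM in WT, 118 ± 25.1 in KD, SD, n = 3), and ICMT, which methylates the prenylated tail (177 ± 41.0 and 162 ± 37.9). With the block, FDPS (edgeR adjusted p = 0.0268) and the farnesyltransferase subunit FNTB (adjusted p = 0.0424) passed as lower, beside 4.42% of all tested genes.

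Genes linked to MX proteins did not pass without the block, and in lists this short a count of 0 is near the 2.59% called over all tested genes. None of 9 host factors was called, with a median log2 fold change of -0.33. The most abundant were PPIA, cyclophilin A (1573 ± 221 CPM in WT, 1135 ± 121 in KD, SD, n = 3), and the RNA helicase DDX39B (430 ± 56.8 and 317 ± 60.8). With the block, DDX39A passed as lower (edgeR adjusted p = 0.00477, 0.0912 without it), beside 4.42% of all tested genes. None of 14 other large GTPases of the dynamin, atlastin, mitofusin and EHD families was called, with a median of -0.27. DNM2, the ubiquitous dynamin, averaged 220 ± 52.5 CPM in WT against 204 ± 13.6 CPM in KD, and MFN2, which fuses mitochondria, averaged 201 ± 42.6 and 227 ± 15.6 CPM (SD, n = 3). With the block EHD4 passed as higher (edgeR adjusted p = 0.00685, 0.0797 without it), beside 5.1% of all tested genes. IRGQ was the tested gene of 7 other GBP and immunity-related GTPase genes, at 24.2 ± 3.18 CPM in WT against 29.1 ± 6.84 CPM in KD (log2 fold change 0.26, SE 0.25, edgeR adjusted p = 0.727).

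The genes next to the 2 loci were described in the same way. None of 8 genes beside the GBP cluster was called (median log2 fold change -0.09). The most abundant, the channel subunit LRRC8D, averaged 61.4 ± 31.7 CPM in WT against 61.4 ± 4.47 CPM in KD, and ZNF326 was at 29.9 ± 5.07 and 17.5 ± 1.08 CPM (SD, n = 3), passing with the block alone (edgeR adjusted p = 0.0483, 0.137 without it). None of the 5 tested genes of 7 beside MX1 and MX2 was called (median 0.02). BACE2, a protease gene, averaged 397 ± 16.0 CPM in WT against 349 ± 20.8 CPM in KD, and RIPK4, a kinase gene, averaged 95.1 ± 3.68 and 122 ± 3.55 CPM (SD, n = 3).

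The genes whose log2 CPM followed each GTPase gene most closely over the 6 libraries differed between the genes, as a description with no test, since condition and library are shared by all points. Among 13534 other genes, MX1 was followed by HSH2D, IFI6 and IRF9, each with Pearson r = 0.999. MX2 was followed by HLA-L, PSEN2 and TRANK1 (r from 0.992 to 0.994), GBP1 by MOB3C, ATXN7L3 and PPP1R3F (0.997 to 0.998), and GBP2 by PARP6, FAM83H and PPP1R3F (0.989 to 0.993). GBP3 was followed by DBNDD2, ZFAND2A and RP11-297D21.4 (0.995 to 0.997), and GBP4 most closely by C11orf48 and DUS1L (0.988 to 0.992). For GBP5, with its few counts, CRTC3, FAM63A and CTD-2192J16.20 came closest (0.976 to 0.993).

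Markers of the cells themselves were set beside these values. Of 10 melanocyte lineage markers, all tested, S100B fell (145, 106 and 101 CPM in WT, 47.3, 49.5 and 40.8 CPM in KD, edgeR adjusted p = 0.00949) and none rose, and with the block 6 were lower and 1 higher, beside 4.42% and 5.1% of all tested genes. Of 10 immune cell markers, 4 were tested and CD68 rose (33.5 ± 7.25 CPM in WT, 101 ± 21.1 in KD, SD, n = 3, edgeR adjusted p = 0.00855). Without the block, 1.75% of all tested genes were called higher and 0.839% lower. CD68, a lysosomal protein, was the most abundant of them, and the list summed to 27.8, 41.7 and 38.2 CPM in WT and 127, 92.3 and 93.0 CPM in KD. The T and B cell genes CD3D, CD3E and MS4A1 were at 0 in all libraries, and PTPRC, the gene of the pan-leukocyte marker CD45, was above 0 in WT replicate 3 alone, at 0.582 CPM. Of 10 endothelial, epithelial and stromal markers, 9 were in the table, 6 were tested and none passed, while COL1A1 passed as lower with the block (edgeR adjusted p = 0.00232, 0.462 without it). That list summed to 9.06, 100 and 69.3 CPM in WT and to 8.11, 28.2 and 24.9 CPM in KD, with COL1A1 the most abundant, and EPCAM, KRT5 and CDH5 were at 0 in KD. The part of these marker differences in the MX and GBP values was not tested.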

How the data were processed

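Messenger RNA was selected by poly(A), and directional libraries of 6 samples were sequenced. Per the labels, the authors used STAR, RSEM and hg19, and deposited expected counts per gene, neither scaled nor filtered. The gene annotation and the strand setting of the counting are not given in the sources used here. Of 57820 genes, 33470 were at 0 in every library.

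After rounding, filterByExpr kept 15605 genes, and TMM scaled the libraries. edgeR 4.0.16 (R 4.3.3) compared KD with WT by its quasi-likelihood test, p-values were adjusted over these 15605 genes by Benjamini-Hochberg, and the threshold was 0.05. The study describes its samples as biologically independent, without saying how cultures were separated, and p-values measure the spread between these samples. No library was a copy of another. Floors of 3 counts cover counting error only, and GBP5 is the only one of the 7 genes near them. Alternatives were a replicate block, DESeq2 1.42.0, upper-quartile scaling, limma-voom (limma 3.58.1), 2 other count filters, unrounded counts, other thresholds and leaving out each library. Replicates 2 and 3 alone were added after the data had been seen. Replicate numbers come from the sample titles. Over 13535 genes, deviations from the condition means correlated at 0.328, 0.212 and 0.179 between same-numbered WT and KD libraries and between -0.234 and 0.0783 between the others, so the numbers were taken to pair the samples.

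The 7 genes and all lists were chosen with earlier results of these data known. Named genes were the 7, STAG2, IRF9, STAT2 and IRF1, up to 4 called genes of each list with the largest fold change, or its 2 most abundant genes where none was called, and the 3 closest profiles. Any other gene was named after its values were seen. Some results, the MX2 promoter among them, are not reported here. Positions, transcripts and promoter windows (250 bases before the start and 50 from it on, MANE Select transcripts) were read from GRCh37 with GENCODE annotation.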

Additional observations from a re-analysis of the deposited data

How the results depend on the processing

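Genes called numbered 404 in the main comparison, 1486 with the replicate block, 979 with DESeq2, 1103 with no low-count filter, 137 at an adjusted p of 0.01, 757 from replicates 2 and 3 alone, and between 121 (without KD replicate 3) and 531 (without WT replicate 1) with 1 library left out. Of the 7 GTPase genes, 5 were called in the main comparison, 2 at an adjusted p of 0.01, and between 1 (without KD replicate 3, MX1) and 4 (without WT replicate 1) with 1 library left out. The replicate block changed the call of none of the 7 genes nor of STAG2. The GBP3 call was lost with upper-quartile scaling (log2 fold change 1.31, adjusted p = 0.0511), with limma-voom (1.32, adjusted p = 0.0557) and from replicates 2 and 3 alone (1.17). The GBP5 log2 fold change turned to -0.44 from replicates 2 and 3 alone and to -0.21 without KD replicate 1, and it could not be computed when 10 counts were required in every library. Over the 6 fits with 1 library left out, log2 fold changes ranged from -2.63 to -1.68 for STAG2, 3.34 to 3.48 for MX1, 0.97 to 1.23 for MX2, 1.62 to 1.97 for GBP1, 1.39 to 1.84 for GBP2, 1.20 to 1.54 for GBP3, 0.39 to 0.90 for GBP4 and -0.21 to 2.26 for GBP5. The causes of these differences were not tested. With 3 libraries a condition, precision is limited by their number, and GBP5 had no count in 1 library of each condition.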
